A study of Homo sapiens with 36 samples.

Results

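The nuclear-encoded subunits of the mitochondrial respiratory chain and ATP synthase were followed through 2 human tumour cell lines treated with an aconite extract or with wortmannin. The members were the protein-coding genes whose symbols carry the family names NDUFA, NDUFB, NDUFC, NDUFS and NDUFV (complex I), SDHA to SDHD (complex II), UQCR (complex III), COX4 to COX8 (complex IV) or ATP5F1, ATP5M and ATP5P (complex V) followed by a subunit letter or number. This rule found 81 members among the 60675 genes of the table, of which 19586 were protein-coding. Complex I had 36 members, complex II 4, complex III 8, complex IV 15 and complex V 18, with NDUFA4 counted in complex IV, where it is now placed. COX4I1, CYC1 and a few further subunits carry names outside these patterns and were kept as a list of their own.

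The cells were SW1783, a human astrocytoma line grown in Leibovitz's L-15 medium without CO2, and HT29, a human colorectal adenocarcinoma line grown in DMEM with CO2. In batch B, cells received 20 (low), 100 (medium) or 500 (high) µg/mL of a hot water extract of Aconitum carmichaeli root (ACD), or 0.1% DMSO as vehicle. In batch A, cells received 10 µM wortmannin, an inhibitor of phosphoinositide 3-kinase, or a 0.1% DMSO vehicle of that batch. All treatments lasted 24 h, and the 12 groups held 3 libraries each, 36 in all. Each line is a single culture stock in its own medium, so line and medium cannot be told apart, and nothing in the labels says that replicates came from separate cultures, so p-values measure the spread between these libraries, which may be technical. In such bulk samples, fewer cells of a kind and less RNA per cell cannot be told apart either.

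Complexes I to IV pass electrons from NADH and succinate to oxygen, and complexes I, III and IV pump protons across the inner mitochondrial membrane. Complex V, the ATP synthase, lets the protons back through its c-ring and turns that flow into ATP. Complexes I, III, IV and V are mosaics, built from a few subunits encoded in mitochondrial DNA and many encoded in the nucleus, whereas complex II is wholly nuclear and also works in the citric acid cycle. Promoters of the nuclear genes often carry sites for NRF1 and for the ETS factor GABP.

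RefSeq promoters (250 bases before to 50 after the start, GRCh38.p14) matched 66 of the 81 members. A gene was counted if any of its windows held the letters on either strand. The NRF1 letters GCGCNTGCG were found for 25 of these 66 members (37.9%) and for 9.01% of all 27305 genes. The ETS letters CCGGAAG were found for 20 members (30.3%, against 12.2% of all) and the YY1 letters ATGGCGGC for 12 (18.2%, against 3.67%). The ERR letters AAGGTCA were found for 11 (16.7%, against 4.80%) and the CRE letters TGACGTCA for 5 (7.58%, against 2.25%). The 27305 genes outnumber the 19586 protein-coding genes of the table, so this background was not limited to protein-coding genes, as the members are. None of these letter strings is contained in another, and no motif was left out for lying next to another. The sequence just before the start is shown for 4 members that differed in their response below, 5′ to 3′ on the gene's own strand, with the matched motif in capitals. ATP5MC1 (chr17:48892637-48892764, plus strand) holds the CRE letters, COX8A (chr11:63974470-63974619, plus strand) the ETS letters, SDHA (chr5:218170-218302, plus strand) the NRF1 letters at 2 places and UQCRFS1 (chr19:29213152-29213301, minus strand) the NRF1 letters.
ATP5MC1: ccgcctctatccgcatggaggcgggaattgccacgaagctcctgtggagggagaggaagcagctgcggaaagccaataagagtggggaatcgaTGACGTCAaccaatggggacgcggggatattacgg
COX8A: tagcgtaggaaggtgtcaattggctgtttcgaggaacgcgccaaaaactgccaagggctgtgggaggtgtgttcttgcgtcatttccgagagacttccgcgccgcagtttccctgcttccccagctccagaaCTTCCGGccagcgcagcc
SDHA: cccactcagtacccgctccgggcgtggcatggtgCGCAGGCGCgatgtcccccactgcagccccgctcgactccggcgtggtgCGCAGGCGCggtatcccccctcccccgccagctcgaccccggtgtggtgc
UQCRFS1: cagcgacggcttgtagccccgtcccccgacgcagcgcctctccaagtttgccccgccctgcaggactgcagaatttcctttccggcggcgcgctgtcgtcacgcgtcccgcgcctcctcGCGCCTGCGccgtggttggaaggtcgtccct

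SW1783 libraries held 18863863 to 26436867 counts and HT29 libraries 15941255 to 33866644, so that 3 counts, the floor used here, stood for 0.113 to 0.159 and 0.089 to 0.188 CPM (counts scaled to the library's total). SW1783 held the mesenchymal markers VIM (mean 4560 CPM over 18 libraries) and CD44 (2525 CPM), but the astrocyte markers GFAP (0.102 CPM) and S100B (0.0854 CPM) were at or near 0. HT29 held the epithelial markers EPCAM (524 CPM), CDH1 (436 CPM) and KRT20 (261 CPM). Of the 3 blood cell markers, CD3E and HBB had 0 counts in SW1783, whereas PTPRC stood at a mean of 10.3 CPM. Of the 81 members, 75 had a mean normalised count of at least 100 in every fit. The other 6, ATP5MGL, COX6A2, COX6B2, COX7A1, COX7B2 and COX8C, lay at or near the floor, and the text gives no fold for them. Where they had an adjusted p, they stay in the counts of members tested and in the medians.

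HT29 libraries stood apart from their own groups. With each library set against the mean of its batch's vehicle, the median log2 difference of the 75 members was -0.29, 0.47 and -0.20 in the 3 HT29 high dose libraries. Replicate 2 held 71 of the 75 members above the vehicle mean, and replicate 1 held 0. The HT29 vehicle of batch B was itself spread, at 0.21, -0.07 and -0.14, and that of batch A at 0.21, -0.07 and -0.14. Other coding genes with an mRNA of up to 1000 nt spread in the same order, at -0.24, 0.38 and -0.20 in the high dose libraries and 0.21, -0.07 and -0.14 in the batch B vehicle, and so did the ribosomal protein genes, at 0.56 in high dose replicate 2 and 0.22 in vehicle replicate 1. The part of mRNA length or RNA quality in these shifts was not tested. In SW1783 the vehicle libraries of batch B lay within -0.01 and 0.02. The counts of members called at the HT29 high dose are also given without high dose replicate 2 and without vehicle replicate 1. Those under wortmannin in HT29 are also given without vehicle replicate 1 of batch A. Other HT29 values come from all libraries unless another fit is named.

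**Figure D1:**
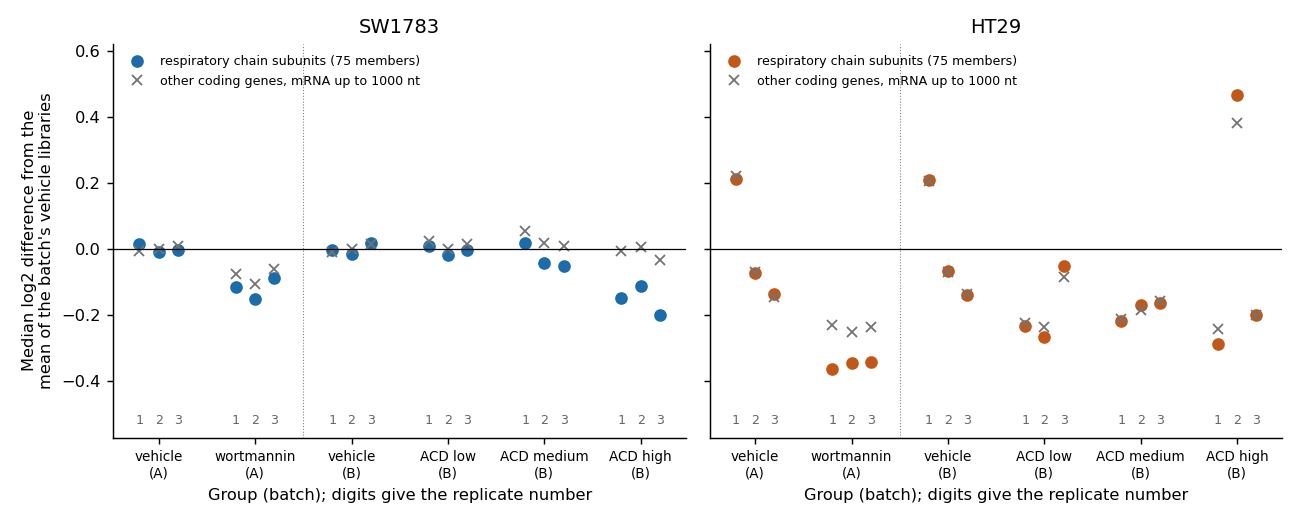
Median log2 difference of the 75 members (filled points) and of other coding genes with mRNAs of up to 1000 nt (crosses) in each of the 36 libraries, against the mean vehicle of the same line and batch. SW1783 high dose libraries lie between -0.20 and -0.11 while the short genes stay between -0.03 and 0.01, whereas HT29 high dose replicate 2 lies at 0.47 with its short genes at 0.38.

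At 500 µg/mL of ACD, more respiratory chain members fell than rose in SW1783, by modest amounts and mostly in complexes I and V. Of 78 members tested, 40 fell and 5 rose at an adjusted p under 0.05 (DESeq2 Wald test, Benjamini-Hochberg over all genes of the comparison), that is 51.3% lower and 6.41% higher. Over all 19453 genes tested, 22.6% were called lower and 23.9% higher, and among genes with a mean count of at least 100 the shares were 31.5% and 35.8%. The median log2 fold change was -0.16 for the members and -0.01 for all genes tested. A stricter rule for a differentially expressed gene (DEG), which also asks for a change over 1.5-fold, was met by 1 member, ATP5MC3, which fell, beside 9.57% of all genes as lower DEGs.

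Complex V and complex I had the lowest medians. Complex I had 23 of 36 members lower and 1 higher (median -0.18), complex V 9 of 17 lower and 1 higher (median -0.20), complex IV 4 of 13 lower and 1 higher (median -0.11), complex III 2 of 8 lower and 1 higher (median -0.08) and complex II 2 of 4 lower and 1 higher (median -0.08). The lower share of complex III (25.0%) lay below the 31.5% of genes with a mean count of at least 100. The complex IV share (30.8%) is set beside the 22.6% of all genes tested. Its 13 members include COX6B2, COX7A1 and COX7B2, which had mean counts under 100. Within complex I, 21 of the 29 accessory subunits fell, with a median of -0.19. Of the 7 core subunits, which hold the flavin, the iron-sulphur clusters and the quinone site, 2 fell (NDUFV2 and NDUFS3), 1 rose (NDUFV1) and the median was -0.08. The difference between core and accessory subunits was not tested.

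Marker genes moved at the same dose. The summed level of the 6 mesenchymal and astrocyte markers was 12568 to 12876 CPM in the batch B vehicle of SW1783 and 8197 to 8262 CPM at the high dose. Of these 6, the collagens COL1A1 (log2 -2.07) and COL1A2 (-1.89) and the receptor CD44 (-0.38) fell and VIM rose (0.29), all called by DESeq2. The epithelial markers summed to 222 to 231 CPM in the vehicle and 68.7 to 75.1 CPM at the high dose, nearly all of it KRT18, which fell by 1.55, while CDX2 was at 0. PTPRC, the one blood cell marker counted, fell by 1.71, with the list at 12.7 to 14.2 CPM in the vehicle and 3.28 to 4.91 CPM at the high dose. The part of these shifts in the member results was not tested.

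ATP5MC3 moved furthest. It lies at chr2:175176258-175181710 (GRCh38) and is one of the genes for subunit c, the ring of the ATP synthase that rotates as protons pass. Its normalised counts were 236, 181 and 215 in the SW1783 vehicle, 218, 214 and 188 at the low dose, 190, 200 and 157 at the medium dose and 109, 99.1 and 107 at the high dose. All high dose libraries lay below every other library of the batch, whereas the low and medium doses overlapped the vehicle. At the high dose its log2 fold change came to -1.01 ± 0.15 (SE, n = 3 against 3, DESeq2 adjusted p = 3.50e-10). The other subunit c genes, which differ from it in the targeting sequence and share the mature protein, did not move alike. ATP5MC1 fell from 1530, 1528 and 1556 to 1279, 1316 and 1300 normalised counts, without overlap. ATP5MC2 rose from 2278, 2236 and 2397 to 2532, 2622 and 2465, again without overlap. Their log2 fold changes were -0.24 ± 0.05 (DESeq2 adjusted p = 1.90e-06) and 0.14 ± 0.05 (adjusted p = 0.0133).

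In the catalytic head of ATP synthase, the alpha subunit gene ATP5F1A fell from 6448, 6146 and 6277 to 5211, 5188 and 4971 normalised counts. The gamma subunit gene ATP5F1C, the central shaft, fell from 2317, 2243 and 2165 to 1768, 1734 and 1753. Neither gene had a high dose library within its vehicle range, and the log2 fold changes were -0.30 ± 0.03 (DESeq2 adjusted p = 7.06e-17) and -0.36 ± 0.04 (adjusted p = 1.55e-15). The beta subunit gene ATP5F1B, which carries the catalytic site beside the alpha subunit, stood at 10142, 10214 and 10023 in the vehicle and 10378, 10599 and 10341 at the high dose, which did not pass the test (log2 0.04, DESeq2 adjusted p = 0.0956). Of the 5 head subunits 2 fell, and of the 4 peripheral stalk subunits, the stator that holds the head still, 3 fell. ATP5MF, the small membrane subunit f, fell from 2863, 2930 and 2948 to 2240, 2224 and 2180, without overlap and with the lowest adjusted p of the members (log2 -0.40 ± 0.05, DESeq2 adjusted p = 3.00e-17). Its symbol shares exons with the read-through gene ATP5MF-PTCD1, so a part of these counts depends on how overlapping reads were assigned.

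The accessory subunit NDUFB3 of complex I (chr2:201071433-201085750) fell most in its complex. Its normalised counts were 343, 345 and 372 in the vehicle and 205, 268 and 230 at the high dose. NDUFA2, another accessory subunit, went from 717, 646 and 725 to 509, 550 and 455. The groups of both genes were apart, with log2 fold changes of -0.58 ± 0.12 (DESeq2 adjusted p = 1.79e-06) and -0.46 ± 0.09 (adjusted p = 8.89e-07). NDUFV1, the flavoprotein that takes electrons from NADH, rose from 1220, 1291 and 1193 to 1390, 1366 and 1441, also without overlap (log2 0.18 ± 0.05, DESeq2 adjusted p = 0.00216). NDUFS1, the largest iron-sulphur subunit, had a log2 fold change of 0.01 that did not pass the test (adjusted p = 0.939).

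Complex II split by subunit. The flavoprotein SDHA went from 2479, 2608 and 2422 to 2293, 2168 and 2186 normalised counts, and the membrane anchor SDHC from 2268, 2155 and 2167 to 1969, 1874 and 1824. The iron-sulphur subunit SDHB went the other way, from 1469, 1478 and 1514 to 1609, 1598 and 1662. None of these groups overlapped, and all 3 changes passed the test (log2 -0.18, -0.22 and 0.13, DESeq2 adjusted p = 6.35e-05, 8.53e-06 and 0.0183). The counts of SDHA need care, because its named pseudogenes held 14.3% of the counts of the gene and its copies together. Named pseudogenes, found for 48 members, held 0.505% of the counts of all members and these copies together.

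In complex III, UQCR10, a small subunit, fell from 1796, 1798 and 1789 to 1456, 1266 and 1301 normalised counts (log2 -0.42 ± 0.06, DESeq2 adjusted p = 8.93e-12). The high dose libraries lay well below a tight vehicle. The core subunit UQCRC2 rose by 0.12 on the log2 scale (adjusted p = 0.0236), while the core subunit UQCRC1 and the Rieske iron-sulphur protein UQCRFS1 had log2 fold changes of 0.02 and -0.02 that did not pass the test (adjusted p = 0.713 and 0.897). In complex IV, COX6B1, which faces the intermembrane space, fell from 2220, 2164 and 2352 to 1809, 1775 and 1774. COX5A, a subunit on the matrix side, rose from 1034, 1170 and 1142 to 1310, 1347 and 1342. Vehicle and high dose did not overlap for either gene, with log2 fold changes of -0.33 ± 0.05 (DESeq2 adjusted p = 4.75e-12) and 0.26 ± 0.06 (adjusted p = 2.18e-04).

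**Figure D2:**
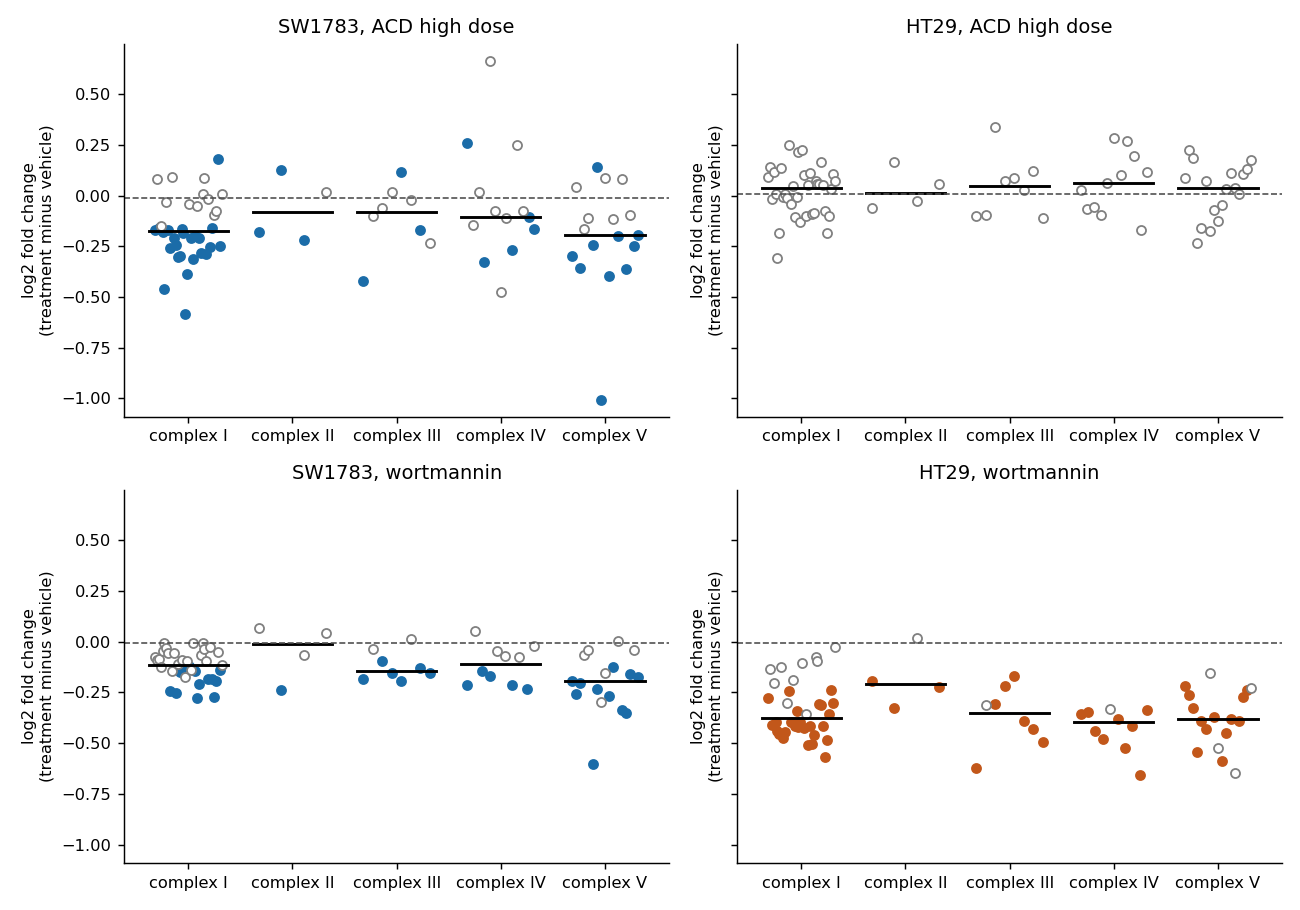
Log2 fold change of each member against the vehicle of its own batch, by complex (columns of points) and for the ACD high dose and wortmannin in each line (panels); filled points passed an adjusted p of 0.05, open points did not, the black line is the median of the complex and the dashed line that of all genes tested. In SW1783 at the high dose the complex medians lie between -0.20 and -0.08, and in HT29 under wortmannin between -0.40 and -0.21.

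The medium dose moved fewer members in SW1783. At 100 µg/mL, 8 of 75 members tested fell (10.7%) and 4 rose (5.33%), beside 14.5% and 15.1% of all 14082 genes tested, so the member shares were below the background in both directions. The 4 that rose, NDUFV1, SDHB, COX5A and ATP5MC2, also rose at the high dose, and their log2 fold changes were 0.18, 0.12, 0.19 and 0.21. The 8 that fell were NDUFA2, NDUFV2, SDHA, ATP5F1A, ATP5F1C, ATP5MF, ATP5PB and ATP5PF, of which 5 belong to complex V. Their log2 fold changes ranged from -0.25 (NDUFA2) to -0.11 (ATP5MF), and none met the DEG rule, beside 1.48% of all genes as lower DEGs. Both doses were set against the same 3 vehicle libraries, so these shared names are not independent of each other. Of the 75 well-counted members, 64 had a lower mean at the high than at the medium dose. For 39 the mean was lower at the medium than at the low dose and lower again at the high dose. The low dose was not required to lie below the vehicle, and these orders were not counted over all genes.

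At 20 µg/mL no member passed the test in SW1783 (DESeq2, 0 of 74 tested), beside 1.24% of all 9304 genes called lower and 2.05% called higher. At an unadjusted p under 0.05 there were 6 members, 3 in each direction, and edgeR's quasi-likelihood test called 3. No member met the DEG rule, beside 0.0215% of all genes as lower DEGs. COX5A came nearest (log2 0.17 ± 0.07, DESeq2 adjusted p = 0.141), with 1231, 1296 and 1242 normalised counts at the low dose, all above the vehicle.

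In HT29 no member passed the test at any dose of ACD with all libraries in the fit. At the high dose 0 of 76 members were called by DESeq2, beside 4.00% of all 16450 genes higher and 3.62% lower, and the member median was 0.04. At the medium dose 0 of 76 were called (1.15% of all genes higher, 0.942% lower, member median -0.19), and at the low dose 0 of 76 (0.328% and 0.321%, member median -0.21). At an unadjusted p under 0.05 the counts were 1, 4 and 3, all lower, and edgeR called 0 at each dose. Without vehicle replicate 1, 0 members were called at each dose, and the member medians were 0.12, -0.08 and -0.08 from the high to the low dose. The short coding genes were also low at the medium dose, at -0.21, -0.19 and -0.16 by library, beside member medians of -0.22, -0.17 and -0.16. No member met the DEG rule in HT29 under ACD, beside 1.63%, 0.401% and 0.176% of all genes as lower DEGs from the high to the low dose. The standard errors were wide: the median over members was 0.182 in HT29 batch B, against 0.055 in SW1783.

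The spread was between the high dose libraries of HT29 as well as within its vehicle. UQCRB, a small complex III subunit, stood at 2519, 2146 and 1910 normalised counts in the vehicle and at 1825, 4541 and 1953 at the high dose. COX6C of complex IV stood at 1868, 1468 and 1285 and at 1093, 3299 and 1239. In both genes replicate 2 was the highest library of its group by far, and the log2 fold changes of 0.34 ± 0.28 and 0.28 ± 0.32 did not pass the test (DESeq2 adjusted p = 0.588 and 0.732). NDUFB3, which fell in SW1783, stood at 1124, 963 and 811 in the HT29 vehicle and at 712, 1817 and 839 at the high dose. ATP5F1B stood at 14077, 12963 and 13314 against 12887, 20888 and 13373. COX8A, a small complex IV subunit, stood at 8097, 5950 and 5553 against 5122, 6854 and 5457. ATP5F1D, the delta subunit of the head, did not follow this order, at 2108, 1567 and 1635 in the vehicle and 1467, 1479 and 1558 at the high dose, which did not overlap (log2 -0.23 ± 0.12, DESeq2 adjusted p = 0.258).

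The result depended on replicate 2. Without it, a library singled out after the values were seen, 29 of 75 members fell and 0 rose at the HT29 high dose, beside 7.61% of all 14644 genes lower and 9.89% higher, and the member median was -0.26. In the same fit 9 of 13 mitochondrially encoded subunits fell (median -1.21), as did 13 of 47 assembly factors and 0 of 13 citric acid cycle enzymes. By complex, 14 of 36 members fell in complex I, 1 of 4 in complex II, 2 of 8 in complex III, 5 of 10 in complex IV and 7 of 17 in complex V. NDUFA2 then stood at a log2 change of -0.67 ± 0.14 (DESeq2 adjusted p = 7.53e-05), against -0.31 ± 0.23 with all libraries (adjusted p = 0.550). UQCRB had -0.21 without replicate 2 (adjusted p = 0.164), and SDHA and SDHB did not pass the test either way. The 2 high dose libraries left had short coding genes at -0.24 and -0.20, beside the member medians of -0.29 and -0.20, and the part of that shift in these calls was not tested.

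**Figure D3:**
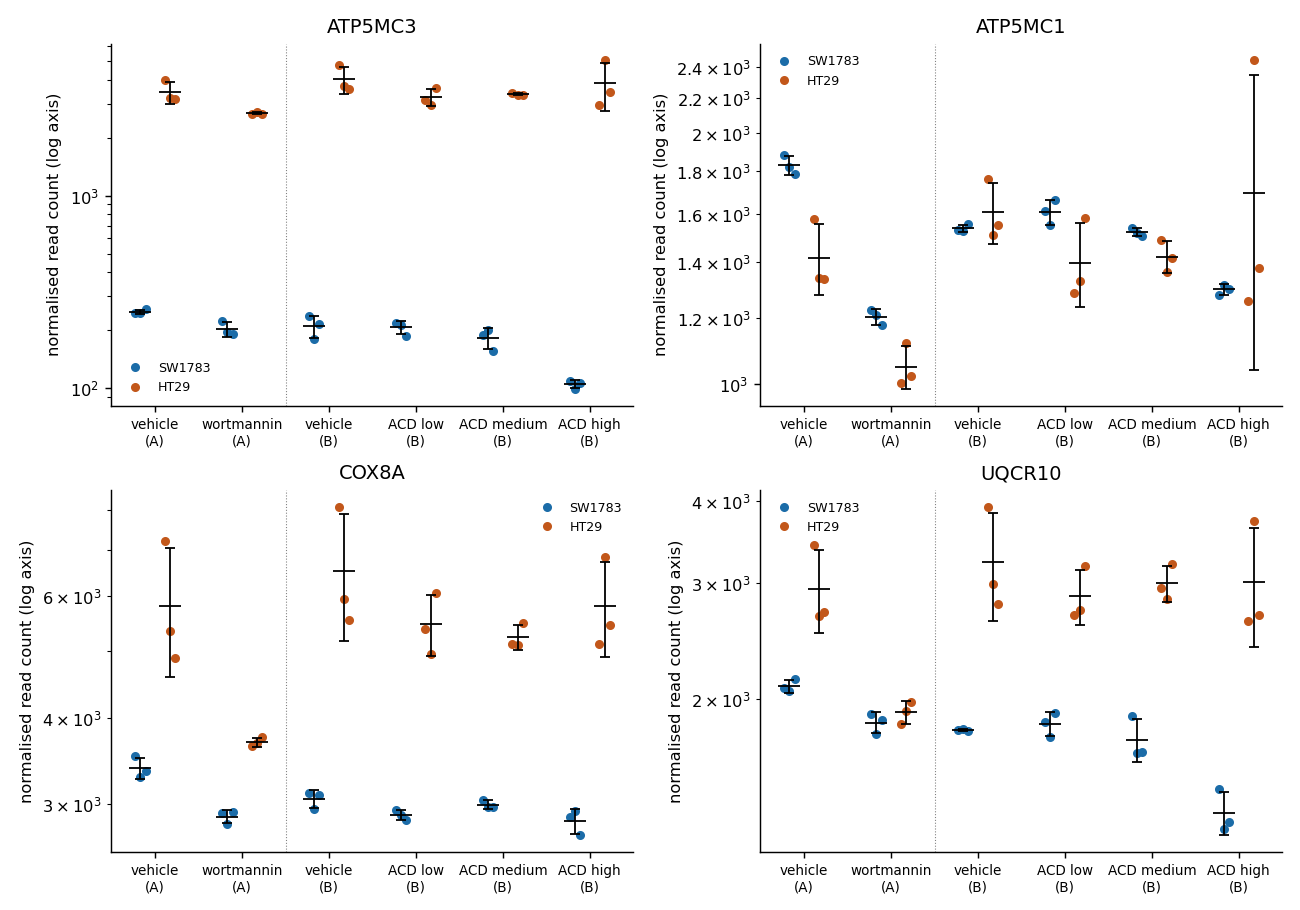
Normalised counts (log axis, scaled within each line and batch) of ATP5MC3, ATP5MC1, COX8A and UQCR10 in every library by group, SW1783 in blue and HT29 in orange, with the mean ± SD of 3 libraries. ATP5MC3 at the SW1783 high dose (99.1 to 109) sits below its vehicle (181 to 236), and ATP5MC1 under wortmannin in SW1783 (1176 to 1226) below its vehicle (1787 to 1882).

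The lines were compared directly at the high dose by the difference of their fold changes, SW1783 minus HT29. Of 76 members tested, 5 had a lower response in SW1783 and 0 a higher one (DESeq2), beside 15.0% and 12.7% of all 18379 genes. ATP5MC3 led, with a difference of -0.98 ± 0.24 (adjusted p = 2.96e-04). In HT29 it stood at 4749, 3705 and 3585 normalised counts in the vehicle and 2962, 5036 and 3468 at the high dose, overlapping groups with a log2 fold change of -0.07. NDUFB3 (-0.84, adjusted p = 0.0373), ATP5F1C (-0.58, adjusted p = 0.0164), NDUFA9 (-0.53, adjusted p = 0.0389) and ATP5F1A (-0.42, adjusted p = 0.0363) were the others. Without HT29 high dose replicate 2, ATP5MC3 (-0.74), ATP5F1C (-0.27), NDUFA9 (-0.19) and ATP5F1A (-0.18) stayed called, NDUFB3 did not (-0.32, DESeq2 adjusted p = 0.169), and COX5A (0.47), ATP5F1E (0.40) and ATP5MC2 (0.33) were called as higher in SW1783, beside 18.7% of all 17669 genes lower and 15.8% higher. The member median of this difference went from -0.23 to 0.05, so its sign depended on that library. The count of 5 ranged from 1 to 20 when other single libraries were left out, and was 22 by edgeR and 20 with trends over mRNA length and GC content removed.

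Under wortmannin many members fell in both lines, and none rose. In SW1783, 36 of 75 members fell (48.0%), beside 20.1% of all 13944 genes lower and 13.8% higher, with a member median of -0.13 against -0.01. In HT29, 58 of 75 fell (77.3%), beside 11.1% of all 13678 genes lower and 7.63% higher, with a member median of -0.37 against 0.00. The SW1783 count ranged from 24 to 34 when single libraries were left out. The HT29 count was 15 with all 18 libraries of the line in the fit and 37 without wortmannin replicate 1. Among genes with a mean count of at least 100, the lower calls were 23.8% in SW1783 and 13.7% in HT29. The lists shared 31 members. This is 86.1% of the SW1783 list, beside 77.3% of all members tested that fell in HT29. It is 53.4% of the HT29 list, beside 48.0% of all members tested that fell in SW1783. The overlap was thus not far above what the sizes of the lists give. The DEG rule was met by 1 member in SW1783 (ATP5MC1, beside 0.983% of all genes as lower DEGs) and by 3 in HT29 (COX8A, UQCR10 and ATP5MF, beside 0.731%).

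By complex in SW1783, 11 of 17 members fell in complex V (median -0.19), 6 of 8 in complex III (-0.14), 13 of 36 in complex I (-0.11), 5 of 10 in complex IV (-0.11) and 1 of 4 in complex II (-0.01). ATP5MC1 (chr17:48892765-48895871), whose upstream sequence with the CRE letters is printed above, stood at 1882, 1819 and 1787 normalised counts in the vehicle and 1226, 1210 and 1176 under wortmannin. The groups lay far apart (log2 -0.60 ± 0.05, DESeq2 adjusted p = 2.54e-29). The other subunit c genes moved less: ATP5MC2 fell from 2823, 2584 and 2955 to 2351, 2363 and 2386 (log2 -0.23, adjusted p = 5.47e-06), and ATP5MC3, the gene that led at the ACD high dose, went from 245, 245 and 257 to 223, 195 and 191 (log2 -0.30, adjusted p = 0.0666, not called). ATP5F1B, which did not pass the test under ACD, fell from 11810, 12159 and 11944 to 9950, 10026 and 10110 (log2 -0.26 ± 0.02, DESeq2 adjusted p = 1.08e-27). COX5A and SDHB, which rose at the ACD high dose, fell under wortmannin, by 0.21 and 0.24 on the log2 scale. SDHA (log2 0.07, adjusted p = 0.173), NDUFV1 (-0.05, adjusted p = 0.520) and NDUFS1 (-0.01, adjusted p = 0.932) did not pass the test. Of the members with CRE letters in the promoter window the median log2 fold change was -0.15, against -0.14 without them, and at the ACD high dose 0.08 against -0.17.

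In HT29, 26 of 36 members fell in complex I (median -0.38), 3 of 4 in complex II (-0.21), 7 of 8 in complex III (-0.35), 9 of 10 in complex IV (-0.40) and 13 of 17 in complex V (-0.38). COX8A (chr11:63974620-63976543) stood at 7210, 5341 and 4882 normalised counts in the vehicle and 3639, 3678 and 3746 under wortmannin. UQCR10 (chr22:29767369-29770413) stood at 3431, 2678 and 2715 against 1830, 1917 and 1977, and ATP5MF at 5340, 4296 and 3805 against 2598, 3198 and 3137. Vehicle replicate 1 was the highest library for each of the 3 genes, yet every wortmannin library lay below every vehicle library. The log2 fold changes were -0.66 ± 0.12 (DESeq2 adjusted p = 6.78e-07), -0.62 ± 0.10 (adjusted p = 6.89e-09) and -0.59 ± 0.12 (adjusted p = 1.31e-05). Without vehicle replicate 1 they were -0.47, -0.50 and -0.44, and 55 of 75 members were still called lower.

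The Rieske protein UQCRFS1 fell from 3452, 2930 and 2881 to 2366, 2332 and 2351 in HT29 (log2 -0.39 ± 0.08, DESeq2 adjusted p = 1.73e-05), ATP5F1B fell by 0.26, ATP5MC1 by 0.43 and COX5A by 0.35. NDUFS1 (-0.08, adjusted p = 0.508) and SDHC (0.02, adjusted p = 0.911) did not pass the test. The wortmannin libraries of HT29 also had short coding genes at -0.23, -0.25 and -0.24 against the vehicle, beside member medians of -0.36, -0.35 and -0.34. In SW1783 the same values were -0.07, -0.11 and -0.06 for short genes and -0.11, -0.15 and -0.09 for members. With trends over mRNA length and GC content removed, the HT29 member median was -0.23, and the part of mRNA length in the rest was not tested. Of the 6 epithelial markers of HT29, 3 rose (VIL1 most, by 0.43) and EPCAM fell (-0.30), with sums of 5012 to 5200 CPM in the vehicle and 5523 to 5574 CPM under wortmannin. In SW1783, PTPRC had a log2 change of -0.40 (DESeq2 adjusted p = 0.00324) and COL1A1 one of -0.21, with the mesenchymal list at 12326 to 12644 CPM against 12270 to 12338 CPM. The part of these shifts in the member results was not tested either.

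**Figure D4:**
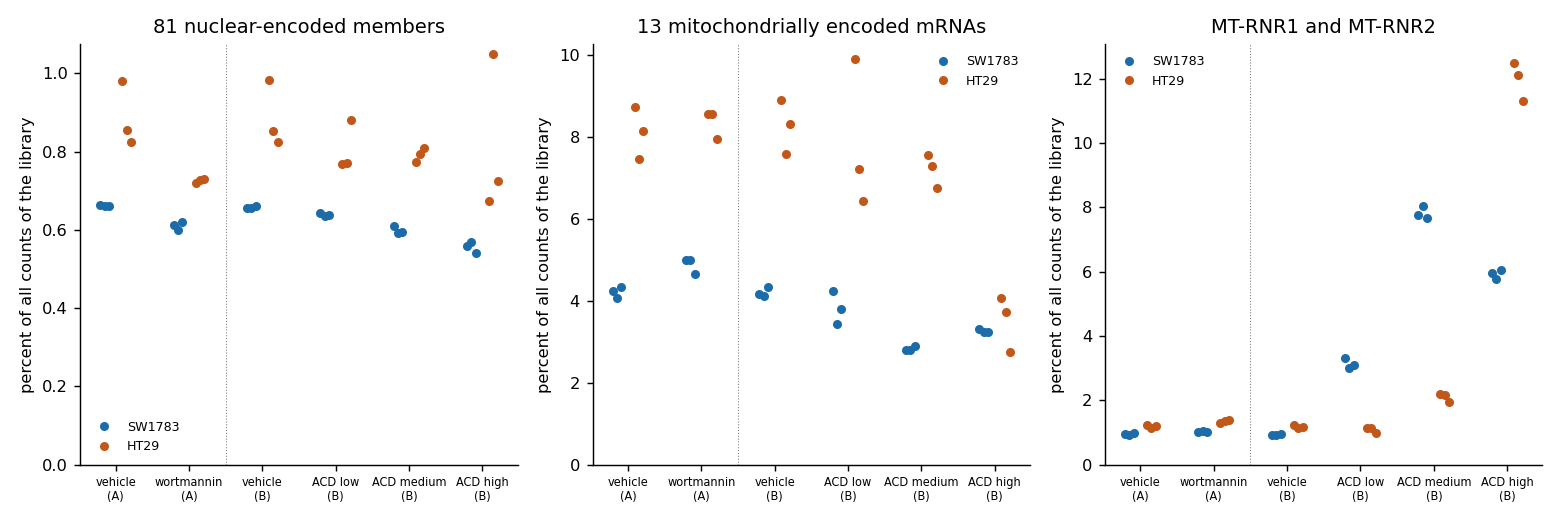
Percent of all counts in each library taken by the nuclear-encoded members, by mitochondrial messenger RNAs and by the mitochondrial ribosomal RNAs MT-RNR1 and MT-RNR2, by line and treatment. In SW1783 the members take 0.656 to 0.661% in the vehicle and 0.541 to 0.568% at the high dose, while mitochondrial ribosomal RNA goes from 0.913 to 0.960% to 5.76 to 6.06%.

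The response to wortmannin differed between the lines for 14 of 75 members, beside 5.33% of all 13625 genes higher and 9.53% lower. All 14 had a difference SW1783 minus HT29 above 0 (DESeq2), that is a smaller fall in SW1783 or none. ATP5F1D fell from 2011, 1480 and 1527 to 1236, 1087 and 1118 in HT29, and stood at 635, 649 and 641 against 621, 602 and 617 in SW1783, a difference of 0.45 ± 0.15 (DESeq2 adjusted p = 0.0169). UQCR10 (0.42 ± 0.11, adjusted p = 0.00344), NDUFA3 (0.40, adjusted p = 0.0245), COX8A (0.40, adjusted p = 0.0391), UQCRFS1 (0.38, adjusted p = 0.0027) and SDHA (0.24, adjusted p = 3.89e-04) were among the others. SDHA, with the NRF1 letters before its start, fell from 6214, 5912 and 5805 to 5308, 5043 and 5322 in HT29 and stood at 2968, 2976 and 2898 against 3020, 3039 and 3216 in SW1783. Both groups of HT29 were apart, and those of SW1783 too, in the opposite direction and without passing the test. For ATP5MC1, the fall in SW1783 was the larger, but the difference of -0.20 did not pass the test (adjusted p = 0.166). Without HT29 vehicle replicate 1, 21 members were called with a difference above 0 and 3 with a difference below 0. The count of 14 ranged from 7 to 34 when single libraries were left out, and was 41 by edgeR and 22 with TMM size factors.

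The vehicle cells of the lines differed in most members, as they did in most genes with a mean count of at least 100 (44.2% higher in SW1783 and 41.8% lower). In batch B, 23 of 78 members tested were higher in SW1783 (29.5%) and 40 lower (51.3%), beside 36.8% and 32.6% of all 21852 genes, with a member median of -0.21 against 0.05 for all genes. ATP5MC3 differed most among the well-counted members, at 11.6, 8.99 and 10.6 CPM in SW1783 and 196, 159 and 153 CPM in HT29 (log2 difference SW1783 minus HT29 -4.01 ± 0.13, DESeq2 adjusted p = 1.46e-194). ATP5MC1, in contrast, stood at 75.5, 75.7 and 76.6 CPM against 72.8, 64.8 and 66.0 CPM, and ATP5MC2 at 112, 111 and 118 CPM against 281, 219 and 216 CPM. The subunit c genes thus differed between the lines in opposite directions, with ATP5MC1 slightly higher in SW1783 (log2 0.18, DESeq2 adjusted p = 0.0263) and the other two lower. Without HT29 vehicle replicate 1, 26 members were higher and 40 lower, with a median of -0.19.

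Other members set the lines apart too. NDUFB9, an accessory subunit of complex I, stood at 79.9, 80.9 and 78.5 CPM in SW1783 and 349, 302 and 281 CPM in HT29 (log2 -1.94). SDHD, the other membrane anchor of complex II, stood at 57.3, 58.0 and 59.1 CPM against 155, 142 and 151 CPM (log2 -1.34), and COX5A at 51.0, 58.0 and 56.2 CPM against 178, 157 and 149 CPM (log2 -1.53). No group of these 3 genes overlapped, all lower in SW1783. UQCRC1 was the other way round, at 190, 189 and 196 CPM against 111, 100 and 94.6 CPM (log2 0.93), as was NDUFV3, at 47.6, 45.7 and 48.7 CPM against 18.6, 19.2 and 19.3 CPM, a gene chosen after its values were seen. By group, 6 of the 7 complex I core subunits were lower in SW1783 and 0 higher (median -0.75), whereas 3 of the 4 peripheral stalk subunits of ATP synthase were higher and 1 lower (median 0.60). All 5 small membrane subunits tested were called, 4 lower and 1 higher (median -1.29).

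**Figure D5:**
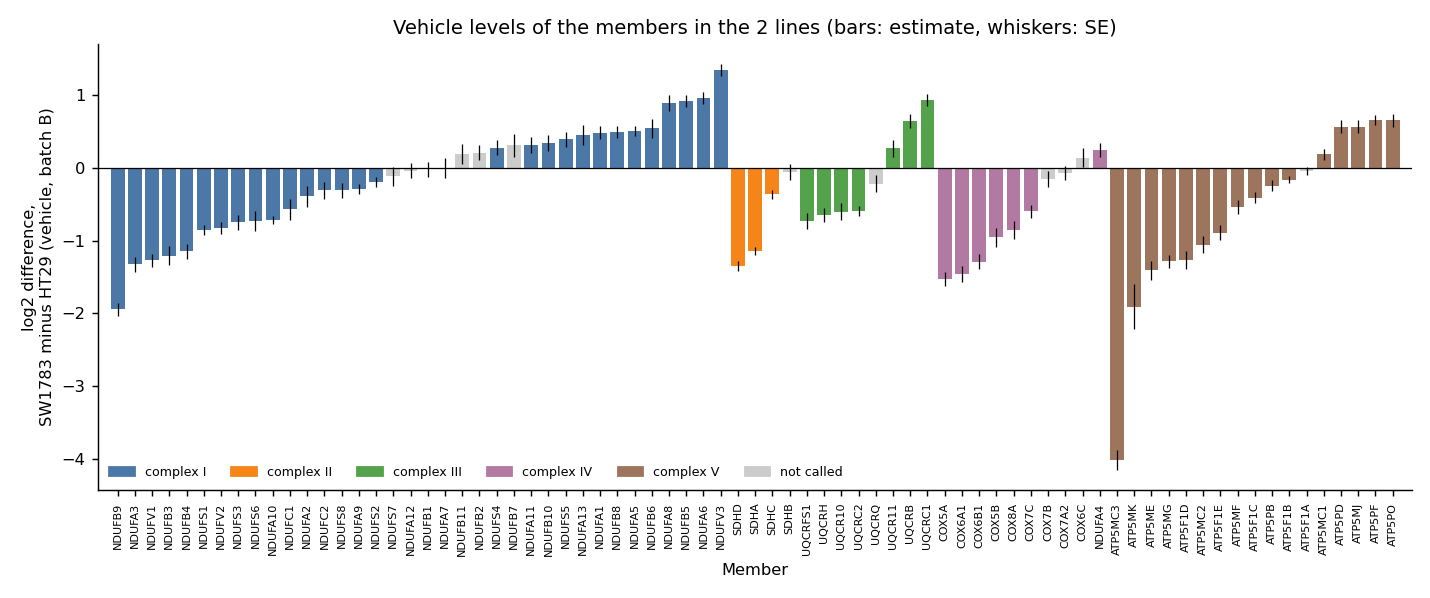
Log2 difference (SW1783 minus HT29) in the batch B vehicles for the 75 members with a mean count of at least 100, ordered within complexes, with bars for the SE; grey members did not pass an adjusted p of 0.05. ATP5MC3 at -4.01 lies furthest from 0, and NDUFB9 at -1.94 and ATP5MK at -1.91 follow.

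Tissue isoforms of complex IV were checked as pairs. COX6A1, COX6B1 and COX8A, the ubiquitous forms, were all lower in SW1783 than in HT29 (log2 -1.46, -1.29 and -0.86), while COX7A2 (-0.07, DESeq2 adjusted p = 0.508) and COX7B (-0.16, adjusted p = 0.183) did not pass the test. The muscle form COX6A2 had 0 counts in every vehicle library of batch B. The muscle form COX7A1 had 5, 7 and 5 counts in SW1783 and 3, 5 and 2 in HT29. The testis form COX6B2 had 11, 10 and 6 against 4, 16 and 11 counts. COX7B2 passed the test as higher in SW1783 (DESeq2 adjusted p = 0.0325), yet its 4, 2 and 3 counts against 0 lie around the floor of 3 counts, so no fold is given. The tissue forms therefore lay at or near the floor in both lines.

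The 13 subunits encoded in mitochondrial DNA, the partners of the nuclear members, were counted beside them. In SW1783, 7 fell (53.8%, beside 22.6% of all genes) and 0 rose at the high dose (median log2 -0.23). At the medium dose 8 fell (61.5%, beside 14.5%, median -0.50), and at the low dose, where no nuclear member was called, 7 fell (53.8%, beside 1.24%) and 2 rose (15.4%, beside 2.05%, median -0.20). MT-CO2, the complex IV subunit that receives electrons from cytochrome c, fell by 0.33, 0.78 and 0.56 on the log2 scale from low to high dose, whereas MT-ND1 and MT-ND2 rose by 0.75 and 0.70 at the low dose and did not pass the test at the high dose. In HT29 at the high dose, where no nuclear member was called with all libraries, 8 of 13 fell (61.5%, beside 3.62%), all as DEGs (median -1.24), among them MT-ND4 (-1.59 ± 0.21, DESeq2 adjusted p = 1.55e-11). Under wortmannin 8 of 13 rose in SW1783 (61.5%, beside 13.8%, median 0.17), while 36 nuclear members fell, and 1 rose in HT29 (7.69%, beside 7.63%, median -0.05). Without HT29 vehicle replicate 1, 3 of 13 rose in HT29 (23.1%, beside 7.51%, median 0.025). Mitochondrial ribosomal RNA took 0.922, 0.913 and 0.960% of counts in the SW1783 vehicle and 5.96, 5.76 and 6.06% at the high dose, and 1.22, 1.14 and 1.18% in the HT29 vehicle against 12.5, 12.1 and 11.3%. Every high dose library was above every vehicle library, and the part of this share in the nuclear and mitochondrial results was not tested.

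The other genes of the pathway were counted from lists, beside the shares of all genes tested (23.9% higher and 22.6% lower at the SW1783 high dose, 20.1% lower under wortmannin in SW1783 and 11.1% in HT29). Of 47 assembly factors at the SW1783 high dose, 12 rose and 12 fell (25.5% each, median -0.02), near those shares, whereas 5 and 40 of the 78 subunits did. Genes with a mean count of at least 100 had higher shares, 35.8% higher and 31.5% lower. Under wortmannin 13 assembly factors fell and 1 rose in SW1783 (27.7% lower, median -0.11) and 11 fell and 0 rose in HT29 (23.4% lower, median -0.18). Without HT29 vehicle replicate 1, 7 fell in HT29 (14.9%, beside 11.4% of all genes). In that fit the citric acid cycle and chaperone lists below kept 5 lower each. Of 13 citric acid cycle enzymes, 4 rose (30.8%) and 6 fell (46.2%) at the SW1783 high dose (median -0.09), 9 fell under wortmannin in SW1783 (69.2%, median -0.18) and 5 in HT29 (38.5%, median -0.14). Of 12 mitochondrial chaperones and proteases, 8 fell under wortmannin in SW1783 (66.7%) and 5 in HT29 (41.7%). At the SW1783 high dose 6 of the 12 rose and 2 fell (16.7% lower, median 0.19), led by the protease LONP1 (log2 1.15) and the chaperone HSPA9 (1.12), while the co-chaperonin HSPE1 fell by 0.55.

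Of the 14 regulators of respiratory chain genes, 6 rose (42.9%, beside 23.9% of all genes) and 1 fell (7.14%, beside 22.6%) at the SW1783 high dose. Those that rose were the mitochondrial RNA polymerase POLRMT (log2 0.74), the receptor ESRRA (0.47), the hypoxia factors EPAS1 (0.45) and HIF1A (0.33), the rRNA methyltransferase TFB1M (0.33) and YY1 (0.23). TFAM, which packs mitochondrial DNA, was the one that fell, by 0.29. Among the subunits named outside the patterns, 4 of 8 rose and 1 fell at the SW1783 high dose. Those that rose were COX7A2L (0.51), CYC1 (0.18), cytochrome c itself, CYCS (0.17), and the complex IV paralogue NDUFA4L2 (1.73). NDUFA4L2 had a mean normalised count of only 15.9, and its log2 fold change an SE of 0.516. The ATP synthase inhibitor ATP5IF1 fell by 0.47. In HT29 at the high dose with all libraries, 4.00% of all genes were called higher and 3.62% lower. Of 13 regulators tested, 1 rose (HIF1A, 0.27, 7.69% of the list). Of 12 chaperones or proteases, 3 rose (25.0%) and 1 fell (8.33%). Among 47 assembly factors 1 rose (2.13%), and among 13 citric acid cycle enzymes 1 rose (7.69%). Without HT29 high dose replicate 2, 3 regulators rose (23.1%), and 4 chaperones or proteases rose (33.3%) and 1 fell (8.33%). The shares of all genes in that fit were 9.89% higher and 7.61% lower. Members with and without the NRF1 letters had the same median at the SW1783 high dose (log2 -0.17 and -0.17) and medians of -0.36 and -0.39 under wortmannin in HT29.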

How the data were processed

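The MGI libraries were directional and paired-end. The submitters' processing notes name FastQC 0.11.9, Trim Galore 0.6.5, STAR 2.7.3a and RSEM 1.3.3 with hg38/GRCh38. The authors deposited RSEM expected counts (estimated counts per gene, 8.84% of values not whole) for 60675 genes in 36 libraries, which were rounded here. DESeq2 1.42.0 (R 4.3.3; median-of-ratios size factors, two-sided Wald test, default independent filtering) was fitted per line and batch on all genes, against the vehicle of the same batch. A gene was called at an adjusted p under 0.05. The line differences were tested as contrasts of group coefficients. edgeR 4.0.16 and the other alternatives are given in the closing section, and the code was tested on simulated data.

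The members, the gene lists and the rule for named genes were chosen with earlier results of these data known. Named were DEG members, the highest and lowest member per complex at the high dose, core subunits, isoform sets, the largest vehicle differences per complex and the leading line differences; other names were chosen after their values were seen. No test was made over a complex or list. Same-numbered samples of different groups were checked for shared deviations, and the correlations (-0.45 to 0.32) did not pair them. Same-numbered vehicle libraries of batches A and B were closer to each other (chi-square per degree of freedom 1.44 to 1.61) than others (1.96 to 16.1), so the batches' vehicles may share RNA. Per gene, 53 non-coding rows with matching symbols were left out, and 29 members overlap another gene on the same strand, whose reads cannot be told apart fully. Counting intervals and floors cover counting error only.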

Additional observations from a re-analysis of the deposited data

Results flagged for a closer look

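The ACD high dose response differed between the lines for 5 of 76 members, all lower in SW1783 (6.58%). This share lay below that of all genes tested, 15.0% lower and 12.7% higher. The differences of the log2 fold changes (SW1783 minus HT29) were -0.98 for ATP5MC3, -0.84 for NDUFB3 and -0.58 for ATP5F1C, each tested as a contrast in DESeq2. Over the fits that left out 1 library, ATP5MC3 ranged from -1.13 to -0.74, ATP5F1C from -0.74 to -0.27 and NDUFB3 from -1.08 to -0.32. The count of 5 ranged from 1 to 20 over those fits and was 22 by edgeR.

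The wortmannin response differed between the lines for 14 of 75 members, all higher in SW1783 (18.7%), beside 5.33% of all genes higher and 9.53% lower. The differences were 0.45 for ATP5F1D, 0.42 for UQCR10 and 0.40 for NDUFA3. Over the fits that left out 1 library these ranged from 0.31 to 0.54, from 0.30 to 0.48 and from 0.27 to 0.46, and the count of 14 from 7 to 34. This comparison was added after the data were seen. No formal test for a single outlying library was made, since it needs groups of at least 4, and the HT29 libraries that stood apart are described by their values in the report.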

How the results depend on the processing

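Signs under the alternatives were compared only for the DEG members, the largest vehicle differences and the leading line differences. These kept their sign wherever they had an adjusted p, and the signs of the other called members were not compared. The member medians carry no test. With 1 library left out, they changed sign for the high dose line difference, the HT29 high dose and the SW1783 low dose. The high dose line difference, -0.23, ranged from -0.36 to 0.05, and the HT29 high dose, 0.04, from -0.26 to 0.16. The SW1783 low dose median, -0.003, was 0.005 without vehicle replicate 3. The HT29 medium and low dose medians, -0.19 and -0.21, ranged from -0.25 to -0.08 and from -0.28 to -0.08. The counts of called members below are set beside the main counts of 45 (SW1783 high), 12 (medium), 0 (low) and 36 (wortmannin), 0 for each HT29 dose and 58 for HT29 wortmannin, 5 and 14 for the line differences at the high dose and under wortmannin, and 63 for the vehicles. The DEG rule gave 1, 0 and 1 in SW1783 (high, medium, wortmannin), 3 for HT29 wortmannin, 2 and 0 for the line differences and 38 for the vehicles. edgeR gave 3 at the SW1783 low dose and 22 and 41 for the line differences, and TMM size factors 22 for the line difference under wortmannin. With all 18 libraries of a line in the fit there was 1 at the SW1783 low dose and 15 for HT29 wortmannin. With only the compared groups in the fit there were 5 at the HT29 medium dose. Removing length and GC trends gave 20 for the high dose line difference. Replicate numbers did not pair the samples. With the replicate block there were 23 for SW1783 wortmannin and 3 and 7 for the line differences, and with the block and the trends removed 20 for SW1783 wortmannin, 36 for HT29 wortmannin and 13 for the high dose line difference. The cause of these moves was not tested.

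Leaving out 1 library at a time gave 38 to 47 at the SW1783 high dose, 6 to 9 at the medium dose, 0 to 1 at the low dose and 24 to 34 under wortmannin. In HT29 it gave 0 to 29 at the high dose (29 without high dose replicate 2), 0 to 0 at the medium, 0 to 1 at the low dose and 37 to 62 under wortmannin (37 without wortmannin replicate 1). The vehicle comparison gave 57 to 66 and the line differences 1 to 20 (20 without HT29 high dose replicate 1, 1 without HT29 vehicle replicate 2) and 7 to 34 (7 without SW1783 wortmannin replicate 1, 34 without HT29 vehicle replicate 3). With 3 libraries a group the standard errors limit the calls, most of all in HT29, where ATP5F1D at -0.23 ± 0.12 did not pass the test.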
